A study of Mus musculus with 14 samples.

Results

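The sites of trimethylated lysine 27 of histone H3 (H3K27me3) were examined at 10 genes that define epithelial cells, namely Cdh1, Epcam, Esrp1, Esrp2, Grhl1, Grhl2, Grhl3, Ovol1, Ovol2 and Trp63. These genes were taken from a given list of epithelial genes that are expected to be silent in fibroblasts, and they are 10 of the 21938 protein-coding genes of the mouse annotation used. No measured value entered this choice rule, and expression was not part of the files used here. For each gene, sites were counted within 1 kb either side of its annotated transcription start sites (the start windows), in the gene body and in the gene with 50 kb on each side, and the share of bases under a site was computed.

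The sites come from ChIP-seq of immortalised mouse embryo fibroblasts (iMEF) of clone NG3, in which exon 4 of the floxed endogenous Ash2l was deleted by Cre-ER and a lentiviral FKBP-HA2-ASH2L takes its place. This fusion joins FKBP12 F36V and HA tags to human ASH2L, a core subunit of the KMT2 complexes that methylate lysine 4 of histone H3, and dTAG-13 is a PROTAC that ties the fusion to the E3 ligase component Cereblon so that it is degraded. All 14 samples therefore lack the endogenous protein and stem from 1 clone. H3K27me3 was measured in 6 groups of 2 replicates, a control and cells exposed to dTAG-13 for 30 min, 2 h, 4 h, 8 h or 16 h, and the remaining 2 libraries are inputs, of the control and of the 16 h exposure.

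The deposited list joins all these samples into 153983 sites and gives a position for each, with no read count, score or call per library. Control and treated cells thus cannot be told apart in it, there are no replicate values from which an error could be computed, and no test was run. The depth behind a site is unknown, and a stretch without a site is one where no peak was called, which does not show that the mark is absent. On the 21 assembled chromosomes, 153878 sites covered 5.93% of all bases. Their median width was 455 bp, and 23.3% of them were at least 1 kb wide.

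H3K27me3 is set by Polycomb repressive complex 2 and marks developmental genes that are kept silent in a given lineage, often in broad blocks around CpG-rich promoters. Epithelial and mesenchymal cells can convert into each other. In this transition, the adhesion molecules of epithelia, the splicing regulators that produce epithelial isoforms and the transcription factors that maintain them are turned off together, while repressors of the Snail, Zeb and Twist families bind CACCTG-type elements (E-boxes) in epithelial promoters. Fibroblasts are mesenchymal cells.

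Of the 10 epithelial genes, 8 carried an H3K27me3 site within 1 kb of a start, whereas the share among all protein-coding genes was 31.5%. At all 8 genes a site of at least 2 kb was among them, a width reached at the starts of 16.1% of protein-coding genes (20.1% for at least 1 kb). The exceptions were Esrp2 and Trp63. The start windows were covered completely in Epcam, Grhl3, Ovol1 and Ovol2, which holds for 5.44% of all genes. A site lay in the body of 9 genes, all but Esrp2, against 46.7% of all genes. This count does not allow for length, as the median body was 38426 bp against 17425 bp over all genes. The median covered share of the body was 36.5% (quartiles 7.69% and 51.7%), compared with a median of 0 and an upper quartile of 5.40% over all genes. With 50 kb added on each side, the median was 12.6% against 3.81%, and sites were present at all 10 genes, which says little since 88.0% of all genes had at least 1 there.

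**Figure D1:**
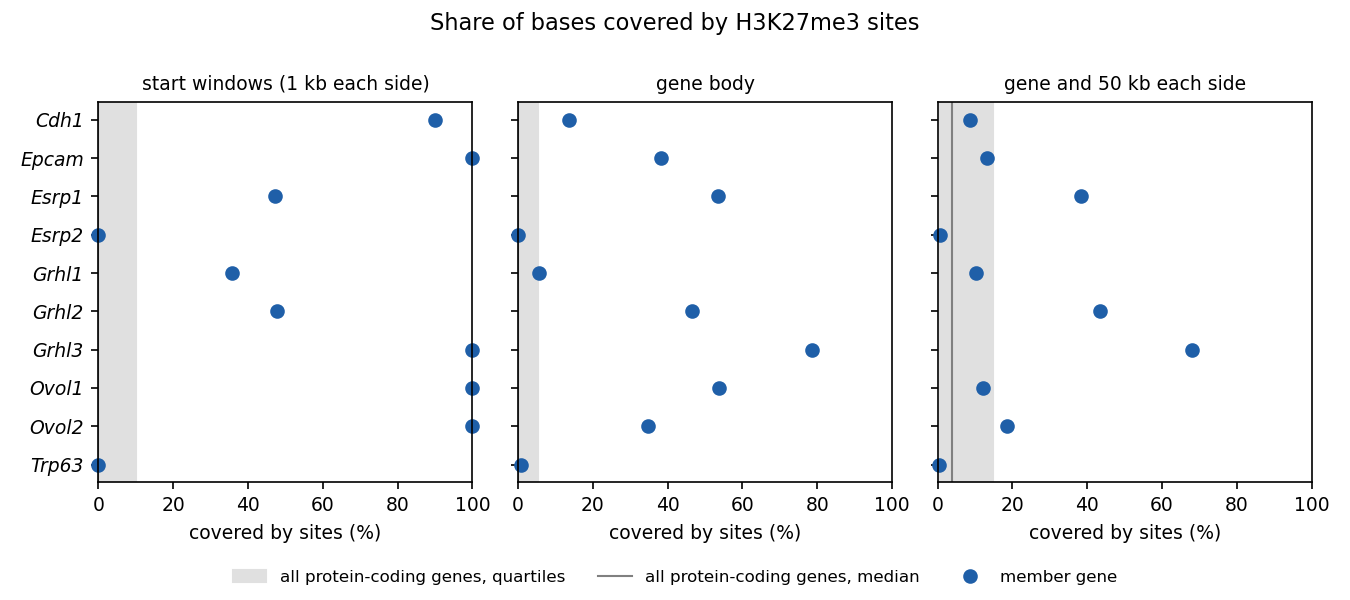
Share of bases (%) covered by H3K27me3 sites in the start windows, the gene body and the gene with 50 kb on each side, with 1 point per epithelial gene; the grey band spans the quartiles of all 21938 protein-coding genes and the line in the right panel is their median, which is 0 in the other panels. Esrp2 and Trp63 lie at or near 0 in all 3 panels, and Grhl3 is highest in the body (78.7%) and with its surroundings (68.0%).

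The order of the genes by covered share of the body was Grhl3 (78.7%), Ovol1 (53.7%), Esrp1 (53.5%), Grhl2 (46.4%), Epcam (38.2%), Ovol2 (34.8%), Cdh1 (13.8%), Grhl1 (5.67%), Trp63 (0.705%) and Esrp2 (0%). Without replicates, it is unknown which neighbours in this order differ beyond their error. Grhl3 had the highest share under all settings tried, together with Epcam when sites less than 5 kb apart were joined. The order from Ovol1 to Ovol2 changed with the way sites were joined or filtered by width, whereas Cdh1 and Grhl1 kept the seventh and the eighth place, before Trp63 and Esrp2.

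Sequence upstream of the start is shown for 3 of the genes as examples of a start inside a site (Epcam, Grhl3) and of a start in a gap between sites (Grhl1), the latter with its second, internal start. The stretches are the 250 bases before the RefSeq start (assembly GRCm38.p6), written 5′ to 3′ along the gene, and capitals mark CACCTG or its reverse CAGGTG. RefSeq promoter entries matched 4 of the 10 genes, these 3 and Ovol2. The Epcam stretch is chr17:87635729-87635978 (plus strand), the Grhl1 stretches are chr12:24572037-24572282, without 4 bases that belong to an exon, and chr12:24580469-24580718 (both plus strand), and the Grhl3 stretch is chr4:135573633-135573882 (minus strand).
Epcam: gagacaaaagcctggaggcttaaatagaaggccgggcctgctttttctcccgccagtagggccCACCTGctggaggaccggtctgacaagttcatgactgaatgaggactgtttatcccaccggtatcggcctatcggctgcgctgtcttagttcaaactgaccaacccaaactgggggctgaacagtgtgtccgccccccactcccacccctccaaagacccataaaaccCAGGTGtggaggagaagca
Grhl1, first start: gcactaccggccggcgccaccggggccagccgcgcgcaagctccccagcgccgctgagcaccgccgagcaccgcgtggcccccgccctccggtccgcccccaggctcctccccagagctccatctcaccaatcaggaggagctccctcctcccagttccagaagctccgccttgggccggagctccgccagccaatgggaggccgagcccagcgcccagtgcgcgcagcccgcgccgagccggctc
Grhl1, internal start: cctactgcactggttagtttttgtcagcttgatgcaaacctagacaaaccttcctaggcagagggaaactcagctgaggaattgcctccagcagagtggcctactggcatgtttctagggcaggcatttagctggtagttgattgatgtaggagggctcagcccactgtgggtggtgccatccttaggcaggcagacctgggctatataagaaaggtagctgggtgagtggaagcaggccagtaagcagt
Grhl3: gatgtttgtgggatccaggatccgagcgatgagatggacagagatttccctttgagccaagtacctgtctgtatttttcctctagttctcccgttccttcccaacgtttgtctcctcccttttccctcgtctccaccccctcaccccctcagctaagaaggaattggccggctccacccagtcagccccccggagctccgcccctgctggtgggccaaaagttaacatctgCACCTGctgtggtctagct
The stretches of Epcam and Grhl3 lay entirely within a site, each with 8 CpG, and held 2 and 1 of the capitalised hexamers. The first Grhl1 stretch held 27 CpG, the most of the 4, and no base of it was in a site. The internal Grhl1 stretch had no CpG and no site either. The median over the promoters of the RefSeq table was 6 CpG, and 5657 of 32851 such stretches (17.2%) held the hexamer on either strand, so that its presence is a description of these letters only.

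**Figure D2:**
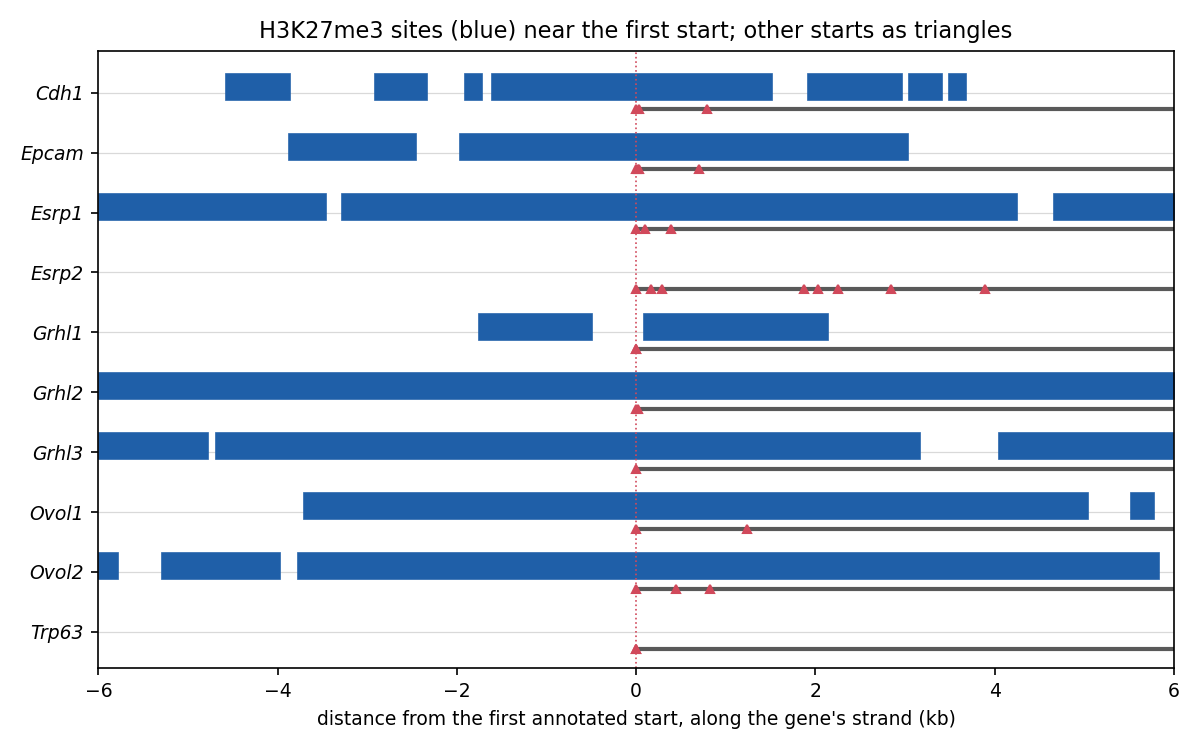
H3K27me3 sites (blue bars) within 6 kb of the first annotated start of each epithelial gene, drawn along the gene's strand with distance in kb; the gene body is the grey line and annotated starts are triangles. Sites cover the first start in 7 genes, the start of Grhl1 lies in a gap between a pair of sites, and no site is drawn for Esrp2 and Trp63.

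Cdh1 encodes E-cadherin, the calcium-dependent adhesion molecule of adherens junctions. The gene lies on chromosome 8 (106603351 to 106670246, plus strand), and its 3 annotated starts were all under a single site of 3131 bp, which began 1615 bp upstream of the first start and ended 1515 bp downstream of it. A start site at least this wide was found at 12.8% of all protein-coding genes. The window around the starts was covered to 90.1%, but the body only to 13.8%. Its 10 body sites formed separate groups. The first group, at the 5′ end, covered exons 1 and 2 of 16, and a stretch of 30273 bp without a site followed (106607036 to 106637308). After 2 narrow sites of 365 and 363 bp within an intron, sites appeared again over exons 12 to 16, among them the widest site of the locus (3311 bp, 106663550 to 106666860) and one of 1459 bp. The last quintile of the body length was covered to 39.7%, more than the first (23.6%). As a result, 61.2% of the exon bases but 10.3% of the intron bases of Cdh1 were in a site.

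Epcam encodes a surface glycoprotein used as a general marker of epithelia. In this short gene on chromosome 17 (87635979 to 87651129, plus strand), a site of 5012 bp spanned all 4 annotated starts and reached from 1981 bp upstream to 3030 bp downstream of the first. A second site of 1434 bp lay upstream of it. The remaining 8 body sites were 200 to 592 bp wide and began 6308 bp downstream of the first start or farther. The first quintile of the body was covered completely and the second to 0.033%. The first start of Epcam is not CpG-rich, with an observed to expected CpG ratio of 0.466, whereas the start 703 bp downstream of it has a ratio of 0.949. Both were under the same site.

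Esrp1 and Esrp2 encode related RNA-binding proteins that direct epithelial splice isoforms, and the sites at the 2 genes differed widely. At Esrp1 (chromosome 4, 11331933 to 11386783, minus strand) 25 sites covered 53.5% of the body. The start region lay in a site of 7536 bp (11382538 to 11390073) that reached 3290 bp upstream and 4245 bp downstream, and only 5.54% of genes had a start site of this width or more. The next sites on either side were 4808 and 6419 bp wide. Cover continued upstream of the gene, where 15 sites occupied 54.9% of the 50 kb, while the 50 kb downstream were covered to 5.27%. Coding sequence was covered to 86.7%, and 12 of 16 exons were touched by a site. The internal starts lay in a different setting. That of a processed transcript 42538 bp downstream was under a site of 377 bp, and the one 19605 bp downstream was 465 bp away from a site of 255 bp.

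At Esrp2 (chromosome 8, 106130319 to 106136974, minus strand) no site was listed in the body or within 1 kb of any of its 8 starts. The nearest site to the first start was 18962 bp away, downstream of the gene, and only 368 bp wide (106117645 to 106118012). With one more of 384 bp, this gave 2 sites and a covered share of 0.705% for the gene and its surroundings, and 27.3% of genes had a lower share. Esrp2 sits in a gap of 95636 bp without a site. Its 3′ end overlaps that of Nfatc3, a transcription factor gene that also lacked a start site, as did its neighbours Pla2g15 and Slc7a6. The first start of Esrp2 is CpG-rich (62.7% GC, CpG ratio 0.754), similar in these values to that of Cdh1 (61.1%, 0.717), which was under a site. No 75-base stretch of the Esrp2 body occurs more than once in the genome sequence.

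The Grainyhead-like genes encode transcription factors that activate junction genes and open epithelial enhancers, and their cover ranged widely. Grhl1 (chromosome 12, 24572283 to 24617391, plus strand) had 3 body sites and a covered share of 5.67%. Its start lay between a site of 1264 bp upstream (24570524 to 24571787) and one of 2073 bp (24572356 to 24574428), which began 73 bp downstream of the start. This gap holds the CpG-dense sequence printed above, and the first start had the highest GC content of the 10 genes (69.5%). The window of the internal start, 8466 bp downstream for the protein-coding transcript, held no site, and the nearest was 5516 bp away. Only 1 of 16 exons of Grhl1 met a site and the last 2 quintiles of the body had none. In the 50 kb downstream, however, 9 sites covered 21.4%.

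Grhl2 (chromosome 15, 37233036 to 37363569, plus strand) carried the widest start site of the 10 genes, 14640 bp from 37225030 to 37239669. A start site of at least this width was found at 2.11% of all genes. It extended 8006 bp upstream and 6633 bp into the gene. A total of 48 sites covered 46.4% of this long body, with 41.7% in the first quintile, 22.4% in the second, 69.8% in the third, 65.9% in the fourth and 32.3% in the last. The widest of the interior sites was 8058 bp. Of the internal starts, the one 52557 bp downstream had no site within 1 kb and those 85367 and 102701 bp downstream had windows covered to 47.4% and 42.8%. On both sides of Grhl2 cover remained high, with 44.2% of the 50 kb upstream and 34.8% downstream. The antisense gene Gm16136 lies entirely within the start site, and because the assay has no strand, its mark cannot be separated from that of Grhl2.

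Grhl3 (chromosome 4, 135541888 to 135573630, minus strand) was the most extensively covered gene. Its single annotated start lay in a site of 7863 bp (135570467 to 135578329), and 13 sites covered 78.7% of the body, more than in 94.8% of all genes. Of its 16 exons, 14 met a site, and 94.5% of the coding bases were covered. The longest stretch without a site that touched the body was 2028 bp. The widest site at any of the 10 genes, 15963 bp, lay upstream of the start (135578407 to 135594369). When sites less than 5 kb apart were joined, 27 sites merged to 98127 bp, which also overlapped part of the neighbouring gene Stpg1. The body of Stpg1 was itself covered to 67.2% by 10 sites, although no site fell within 1 kb of its starts.

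**Figure D3:**
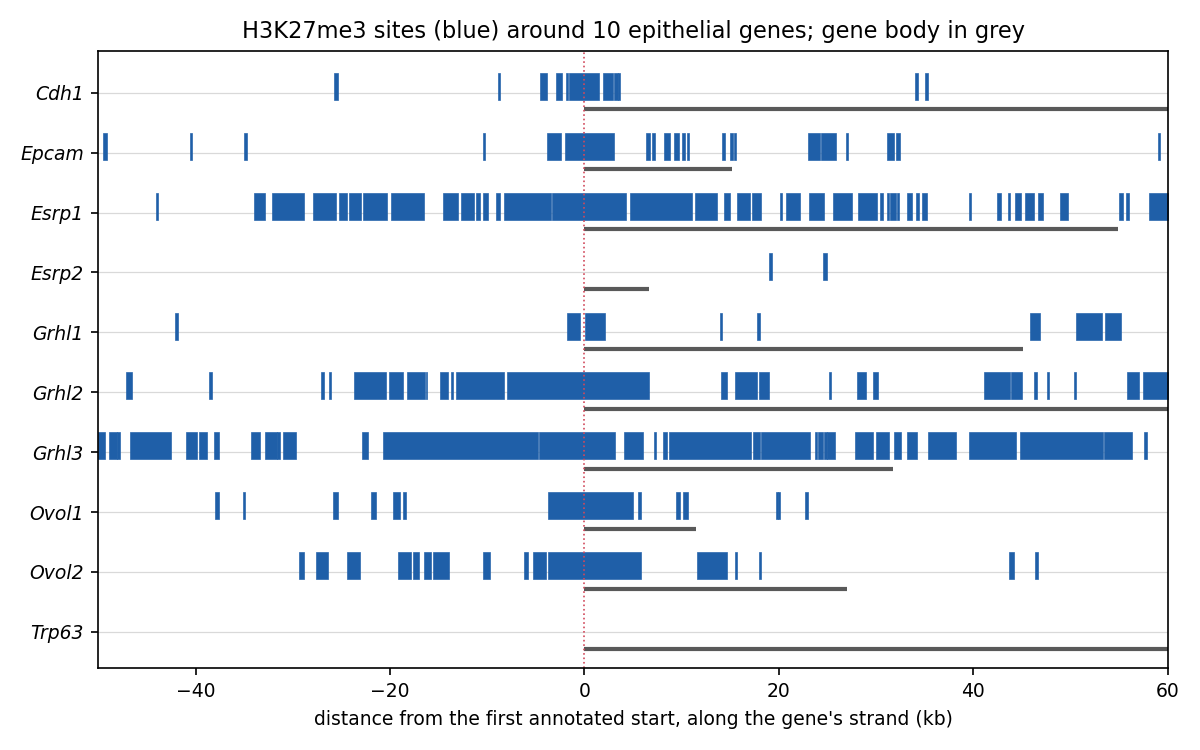
H3K27me3 sites (blue bars) from 50 kb upstream to 60 kb downstream of the first annotated start of each epithelial gene, along the gene's strand with distance in kb; grey lines are gene bodies and those of Cdh1, Grhl2 and Trp63 run past the right edge. Sites are dense on both sides of the start in Esrp1, Grhl2 and Grhl3, concentrated at the start in Cdh1 and Ovol1, and missing from the range drawn at Trp63.

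Ovol1 and Ovol2 encode zinc finger repressors that hold back mesenchymal genes such as Zeb1. Both starts lay in wide sites. At Ovol1 (chromosome 19, 5549136 to 5560646, minus strand) a site of 8760 bp reached 3722 bp upstream and 5037 bp downstream and covered both starts. The first and second quintile of the body were covered completely and the fourth not at all. The 3 further body sites were 268 to 471 bp wide. The 50 kb upstream were covered to 13.1%, with the part of the start site there included. The other sites there were up to 719 bp wide. At Ovol2 (chromosome 2, 144305175 to 144332146, minus strand) the start site of 9617 bp reached 3782 bp upstream and 5834 bp downstream and covered all 3 starts. A second wide site of 3143 bp followed in the middle of the gene, and the last quintile was free of sites. The 50 kb upstream of Ovol2 were covered to 26.9% and the 50 kb downstream to 1.73%. Antisense genes share the start site at both loci, AC126029.1 at Ovol1 and 1700108N11Rik at Ovol2. Start sites at least as wide were present at 4.57% and 4.04% of all genes, respectively.

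Trp63 encodes p63, the master regulator of stratified epithelia, with a long isoform from the first start and a shorter one, ΔNp63, from an internal start. At this gene (chromosome 16, 25683763 to 25892102, plus strand) neither start had a site within 1 kb. The first was 112848 bp from the nearest site. The internal start, 118153 bp downstream, was 5106 bp from a site of the smallest width in the list, 200 bp (25796611 to 25796810). Only 4 sites of 200, 200, 746 and 322 bp lay in the 208340 bp of the body, a covered share of 0.705%. The wider pair was found in the last quintile and met exons 13 and 14 of 14. In the 50 kb on either side no site was listed. The gap without a site that contains the first start was 428474 bp long (25368137 to 25796610). Trp63 also had the lowest GC content (40.4%) and CpG ratio (0.196) at its first start of the 10 genes, and the internal start was similar (41.0%, 0.240). In the gene and its surroundings, 1.70% of 75-base stretches occur more than once in the genome sequence, within the range of 0.356% to 3.95% over the 10 genes.

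In terms of sequence composition, the first start was CpG-rich (at least 50% GC and an observed to expected CpG ratio of at least 0.6) in 6 genes, namely Cdh1, Esrp2, Grhl1, Grhl2, Ovol1 and Ovol2, and 5 of these had a start site. Among all genes with a CpG-rich first start the share was 25.5%. Of the other 4 genes, 3 had a start site (Epcam, Esrp1, Grhl3), compared with 36.3% of all genes of this kind. The 8 genes with and the 2 without a start site were therefore found in both classes.

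The 15 sites in the start windows had a median width of 2073 bp and 60% of them were at least 1 kb wide. The 106 further sites in the bodies had a median of 572.5 bp, closer to that of the whole list, and 29.2% of them reached 1 kb. For the 122 sites in the 50 kb around the genes, the median was 720.5 bp. Along the body, the mean covered share over the 10 genes was 56.5% in the first quintile and 26.9%, 37.2%, 21.2% and 20.9% in the following ones. Over 21221 protein-coding genes, these means ranged between 13.4% in the first and 9.99% in the last quintile. At the level of single genes the pattern was not uniform. The first quintile was the most covered in Epcam, Esrp1, Grhl1 and Ovol2, and in Ovol1 together with the second. In Grhl2 and Grhl3 it was the third, and in Cdh1 and Trp63 the last. Exons were covered to a larger share than introns in 6 of the 9 genes with a body site, and for all genes with such a site the figure was 56.7%.

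**Figure D4:**
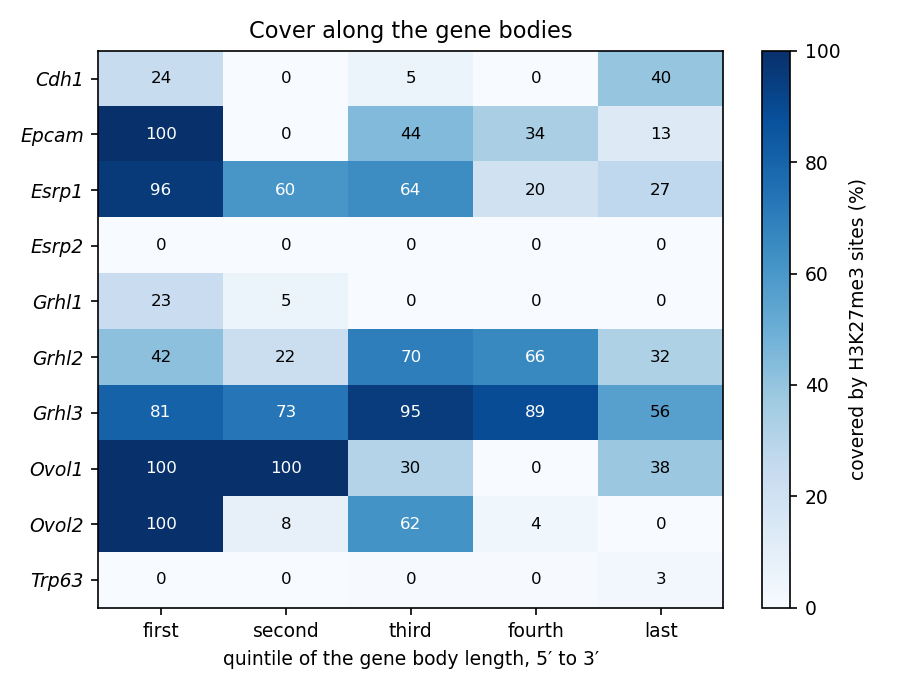
Covered share (%) of each quintile of gene body length from 5′ to 3′ for the 10 epithelial genes, as colour and as rounded numbers. The first quintile is fully covered in Epcam, Ovol1 and Ovol2, the third is highest in Grhl2 and Grhl3, and the last is highest in Cdh1.

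Directly around the start, cover was at its highest. In the 250-bp bin beginning 750 bp downstream of the first start, the mean covered share over the 10 genes was 80%, compared with 16.9% over all genes. In the bin beginning 250 bp upstream it was 70% (16.3% over all genes), where Grhl1 was without a site as well as Esrp2 and Trp63. At 5000 bp downstream it was 41.5% (10.8% over all genes), and at 7750 bp it was 10%, the lowest value within 20 kb, next to 9.75% of all genes. Farther away it was higher again, with 41.7% at 14250 bp downstream (9.55% over all genes) and 47.5% at 19250 bp upstream (11.4%).

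Of the 23 protein-coding neighbours within 50 kb, 3 (13.0%) had a start site, against 31.5% of all genes. These were Cys1 next to Grhl1 (widest start site 7210 bp), Ncald next to Grhl2 (6682 bp) and Nipal3 beyond Grhl3 (306 bp). Starts of a neighbour were counted wherever they lay. The sites of these widths lay beyond the 50 kb, so that they could not be shared with an epithelial gene. Tango6, which follows Cdh1, and the related cadherin gene Cdh3 upstream of it had no site in their bodies. No start site was listed either at Dpy19l4 near Esrp1, Taf1b and Klf11 near Grhl1, Ap5b1 and Kat5 near Ovol1, and Snx5 and Kat14 near Ovol2. Ncald held 127 sites over 27.8% of its body.

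For comparison, further lists of genes were evaluated in the same way, all of them chosen with earlier results of these data known. Of 23 epithelial junction and polarity genes, 15 (65.2%) had a start site, against 31.5% of all genes. A start site of at least 2 kb was present at 10 genes (43.5%), against 16.1% of all genes. The median covered share of the body was 22.4%, where that of all genes was 0. The bodies of the claudin genes Cldn3 and Cldn7 were covered completely. Of 16 other epithelial regulators and effectors, 11 (68.8%) had a start site and 10 (62.5%) had one of at least 2 kb, beside the same shares of all genes. The highest shares of the body were found for Spint1 (93.6%), which encodes an inhibitor of epithelial serine proteases, Lad1 (91.6%) and Tfap2c (85.8%). Both epithelial lists also contained genes without a start site, for example Cdh3, Cldn4 and Jup in the first and Elf3 and Rab25 in the second. The 10 epithelial identity genes thus were not alone among epithelial genes in having such sites, and no test of a difference between the lists was possible.

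Of the 9 genes that encode repressors of epithelial genes, 2 (22.2%) had a start site, Zeb2 with 383 bp and Snai1 with 295 bp, against 31.5% of all genes. The median covered share of the body was 0, as it was over all genes. The highest shares of the body in this list were 1.02% for Zeb2 and 0.136% for Zeb1, and all 7 others had none. Of the 7 relatives of the epithelial genes, 3 (42.9%) had a start site, beside 31.5% of all genes. Trp73, the p53 family member closest to Trp63 in this list, was covered to 91.3% with a start site of 16843 bp, while Trp63 had 0.705% and Trp53 had no site. Cdh4 (14.3%) and Tfcp2l1, a gene of the Grainyhead family (11.9%), followed, and Ovol3 had no site.

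**Figure D5:**
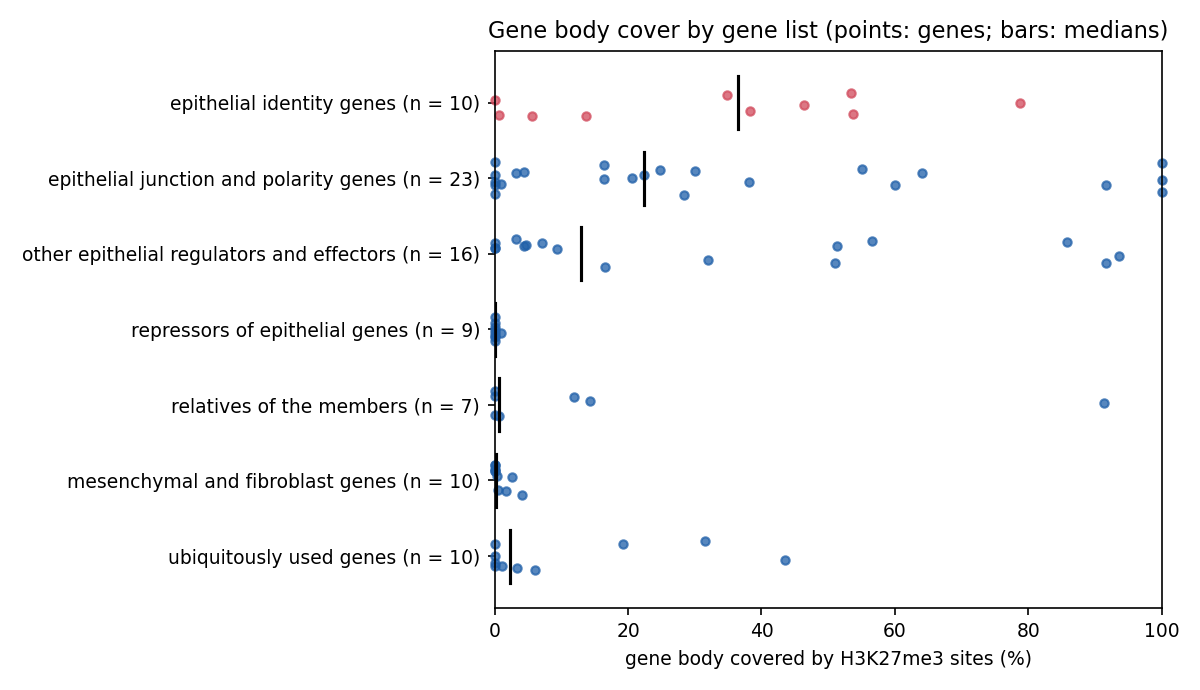
Share of the gene body (%) covered by H3K27me3 sites, with 1 point per gene and a black bar at each list's median; points are spread vertically for legibility. The epithelial identity genes have a median of 36.5%, the repressors and the mesenchymal and fibroblast genes lie at 4.08% or lower, and the other lists include genes at 0.

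Genes that mark fibroblasts served as a check of the cell type. Of 10 mesenchymal and fibroblast genes, 3 (30%) had a start site, close to the 31.5% of all genes. Each was narrower than 1 kb, namely Vim (363 bp), Col1a1 (389 bp) and Pdgfra (437 bp). Their covered shares of the body were 4.08%, 1.70% and 2.63%, and the median of the list was 0.182%, where that of all genes was 0. Positions of sites do not give expression, so that the labelled cell type was not tested beyond this. Of 10 ubiquitously used genes, 4 (40%) had a start site, or 1 when only the starts of protein-coding transcripts were used, beside 31.5% of all genes. Those at Actb (1350 bp), Tubb5 (1381 bp) and Hsp90ab1 (1062 bp) were wider than 1 kb, and none reached 2 kb. The body of Actb was covered to 43.5%, a share above those of 6 of the 10 epithelial genes and above their median of 36.5%. A covered body in this list is therefore also found at a gene used in all cells.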

How the data were processed

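H3K27me3 ChIP-seq was performed on NG3 cells in 12 libraries, with 2 input libraries. The sample titles label these as the first experiment, and the second H3K27me3 experiment of the paper was not used. The authors used Trim Galore for trimming, BWA for alignment to mm10 (GRCm38.p6) and samtools for filters after ENCODE. They also combined replicates (Picard), called broad peaks with MACS and normalized to the lowest coverage, in an order that is not fully stated. The list is described as holding the peaks identified across all samples. Program versions, thresholds and the joining rule are not given in the sources used here. The deposited file holds positions only (chromosome, start, end), with no read count, signal or score per library, so the joined list may vary with the number and depth of libraries.

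Starts were read as counted from 0, since the smallest end minus start was 200, and printed as counted from 1. Sites were overlapped (1 base or more) with GENCODE M21 genes on GRCm38.p6, a release earlier than the study's, in Python 3.11.15 with numpy 2.4.6 and pandas 2.3.3. Starts of all transcripts of a gene were used with windows of 1 kb on each side, and CpG content was taken from 500 bp on each side. Overlap counting was tested on simulated data. Uniqueness refers to 75-base stretches of either strand. Wide sites at least 1 kb or 2 kb wide were counted separately. No test was run because there are no replicate values.

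All 10 genes are named. In the comparison lists, all counts and genes among the 3 with the highest covered body are given (some items are not reported here), and further genes were named after their values were seen, as were neighbours other than the nearest. The genes and lists were chosen with earlier results of these data known. No measured value entered the rule by which the 10 genes were taken. Alternatives joined sites, set a minimum width or changed the windows.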

Additional observations from a re-analysis of the deposited data

Results flagged for a closer look

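The list held 105 sites on 23 sequences other than the assembled chromosomes, which entered none of the comparisons. None of the 10 epithelial genes is annotated there.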

How the results depend on the processing

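No paired analysis was possible because no sample has values of its own in these data, and leaving out a replicate could not be tried either. The number of epithelial genes with a start site, and with one of at least 1 kb, remained 8 when sites were joined, filtered by width or read as counted from 1, when the windows were 500 bp or 2 kb, and with protein-coding transcripts only. The median covered share of the body was 57.7% with sites less than 5 kb apart joined. The median of the gene and its surroundings was 26.1% with this joining and 24.0% with 20 kb instead of 50 kb on each side. The number of repressor genes with a start site was 0 with sites of at least 500 bp, 0 with at least 1 kb and 1 with windows of 500 bp, against 2. For the mesenchymal and fibroblast genes it was 0 with at least 500 bp and 0 with at least 1 kb, against 3, and for the ubiquitously used genes it was 1 with protein-coding transcripts only, against 4. In each case the alternative itself adds or removes bases, sites or starts. Of 320 further values of single genes under these settings, 212 stayed within 1.5 times the reported value and 108 did not, 30 of them with sites joined below 5 kb and 27 with a minimum of 1 kb.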
